A study of Mus musculus with 4 samples.

Results

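Endothelial cells (ECs) set the width of a vessel through a small group of signals that they make themselves, and 10 genes of that group were followed here in ECs of the dura mater and of the brain. They are Nos3 (nitric oxide), Edn1, Ece1 and Ednrb (endothelin), Ace (angiotensin), and Ptgs1, Ptgs2, Ptgis, Ptgds and Ptger4 (prostanoids). The members were taken by gene symbol from the 23282 entries of the count tables, and all 10 were listed.

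Nitric oxide is made in ECs from arginine and relaxes the smooth muscle around the vessel by way of soluble guanylate cyclase and cyclic GMP. Endothelin-1 does the opposite when it reaches the muscle, but on ECs its type B receptor releases nitric oxide and prostacyclin and clears the peptide. Prostanoids start with a cyclooxygenase that turns arachidonic acid into prostaglandin H, from which separate synthases make prostacyclin, prostaglandin D and the others.

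Dura mater ECs and brain ECs (brain parenchyma, per the labels) came from C57BL/6J mice at 8 weeks of age, with 2 libraries for each tissue and no treatment or genetic change given in the labels. The study asked what sets the ECs of these tissues apart at the level of RNA. Cells were sorted as positive for CD31 and negative for CD45 and TER-119, and brain ECs alone went through a magnetic enrichment on CD31 before the sort. The sources used here do not state how many mice gave each library, so p-values measure only the spread between these libraries, which may be technical.

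The libraries held 13518973 to 16096203 counts. Replicates were uneven: of the symbols with 64 or more counts in either library of a tissue, 2572 of 8212 in brain ECs and 3210 of 10447 in dura mater ECs had 7 or fewer in the other library. The common biological coefficient of variation was 1.39. Pecam1 and Cdh5, which define ECs, had 4708 to 23619 counts in each library, and 9 pan-endothelial genes summed to 9317 to 12124 CPM (counts scaled to the library total) in brain ECs and 8403 to 10624 CPM in dura mater ECs. The 6 genes of brain endothelium summed to 22457 to 24188 CPM in brain ECs against 3014 to 3093 CPM in dura mater ECs. In such bulk samples, fewer cells of a type and less RNA per cell cannot be told apart.

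**Figure D1:**
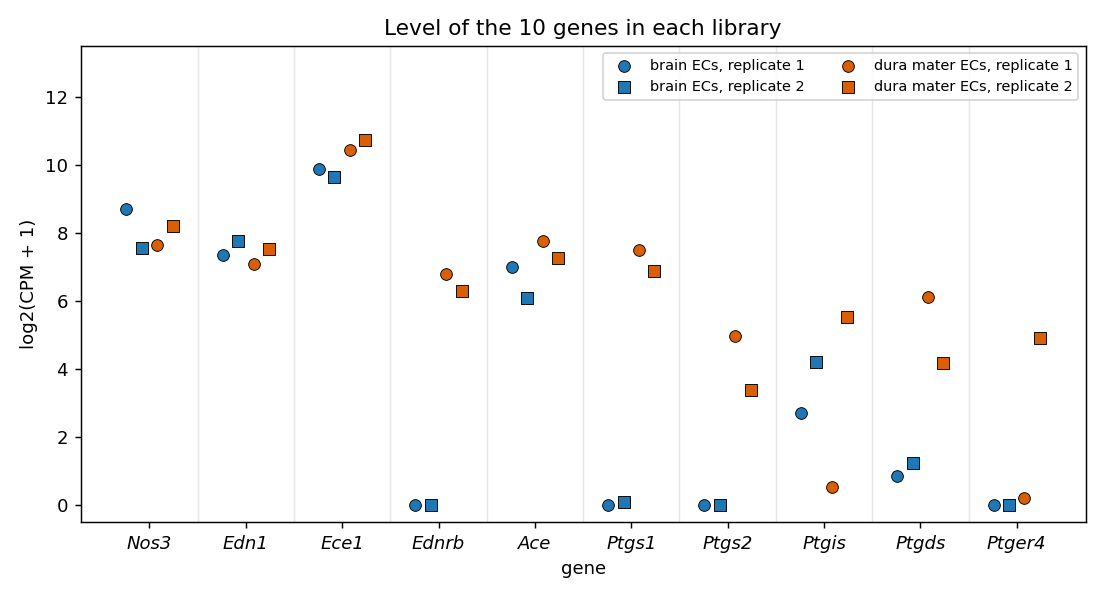
Level of each of the 10 genes as log2(CPM + 1), with 1 point for each library (blue, brain ECs; orange, dura mater ECs; circles, replicate 1; squares, replicate 2). Nos3 and Edn1 overlap between tissues, Ednrb, Ptgs1 and Ptgs2 lie at or near 0 in brain ECs alone, and Ptgis and Ptger4 are split between the dura mater replicates.

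The 10 genes did not behave alike. Nos3 and Edn1, the genes for the main relaxing and constricting signals, had 1817 to 6038 counts in each library, and the tissues overlapped. Ednrb, Ptgs1 and Ptgs2 had at most 1 count in each brain library and 156 to 2434 counts in each dura mater library, while Ece1, Ace and Ptgds were counted in all 4 libraries, with both dura mater libraries above both brain libraries. Ptgis and Ptger4 differed too much between the dura mater replicates for a direction to be read.

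The quasi-likelihood test of edgeR was fitted over all 9347 genes that passed its filter on low counts. Of the 10 members, 9 passed that filter, and Ptger4 did not. Ednrb, Ptgs1 and Ptgs2 passed through the dura mater libraries alone, so they could only differ in that direction. None of the 9 had an adjusted p under 0.05, where 0.610% of all tested genes did. At an unadjusted p under 0.05 there were 4 members, Ptgs1, Ednrb, Ece1 and Ptgs2, all higher in dura mater ECs, against 936 of all 9347 tested genes (10%) in either direction. DESeq2 on the same genes called 3 members higher in dura mater ECs, Ednrb, Ptgs1 and Ptgs2, where it called 6.90% of all genes higher.

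The libraries of the tissues did not overlap for 6 of the 9 tested members, all higher in dura mater ECs. Over all tested genes 26.2% were separated in that direction and 16.9% in the other, where no member stood. The pattern of at most 1 count in each brain library with 64 or more in each dura mater library, described after the values were seen, held for 3 of the 9 tested members and for 5.48% of all tested genes. The median log2 fold change (dura mater over brain) of the 9 was 0.98, also with Ednrb and Ptgs2 set at their lower bounds, beside −0.01 over all tested genes. That median is the value of Ptgis, which had no stable direction. Above it lie Ednrb, Ptgs1 and Ptgs2, which passed the filter through the dura mater libraries alone. The median therefore does not show a shift of the members as a set.

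**Figure D2:**
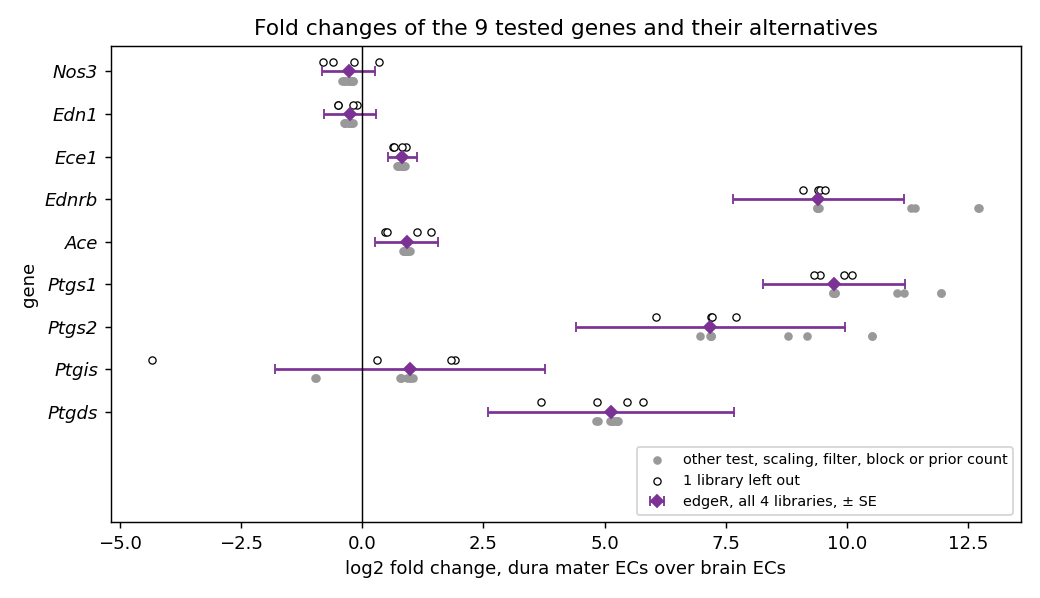
Log2 fold change of the 9 tested genes, dura mater ECs over brain ECs (purple diamonds with SE bars from edgeR), beside the values with another test, scaling, filter, block or prior count (grey points) and with 1 library left out (open circles). Nos3 and Ptgis have values on both sides of 0, and Ednrb, Ptgs1, Ptgs2 and Ptgds are at 3.70 or more throughout.

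Nos3 encodes the endothelial nitric oxide synthase (chromosome 5, 24364810 to 24384474, plus strand, GRCm38). It was at 413 and 187 CPM in the brain libraries and at 199 and 295 CPM in the dura mater libraries. The dura mater values lay between the brain values, so the tissues overlapped. The means were 299.8 ± 159.9 CPM and 247 ± 67.4 CPM (SD, n = 2), which gave −0.28 ± 0.55 (SE) as log2 fold change, with an adjusted p of 1.00 in edgeR. Its sign rested on 1 library: without brain replicate 1 the log2 fold change was 0.35.

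The Nos3 value is also shared with a neighbour. Atg9b, an autophagy gene on the minus strand, ends inside the last exon of Nos3, and the shared 294 bases (24384181 to 24384474) run up to the 3′ end of Nos3. The library kit reads 3′ ends. Nos3 had 6038, 2492, 2697 and 4854 counts, and Atg9b had 5990, 2412, 2629 and 4743 in the same order of libraries (brain 1, brain 2, dura mater 1, dura mater 2). The counts differed by at most 3.21% in any library, leaving 48, 80, 68 and 111 counts of Nos3 above Atg9b. Reads of the genes cannot be told apart here, since the use of strand in the counting is not given in the sources used here. No other member had a symbol within 5% of its counts in all 4 libraries.

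Around Nos3, 26 further genes of nitric oxide synthesis and response were listed and 20 were tested. None passed the adjusted threshold in edgeR, 3 had an unadjusted p under 0.05 with higher values in dura mater ECs (Cav1, Hsp90aa1, Gucy1b3) and 1 with lower values (Slc7a1). Over all 9347 tested genes, 658 were higher and 278 lower at that unadjusted threshold. Slc7a1, Cav1, Hsp90aa1 and Nos1 are named after their values were seen. Slc7a1, a carrier that brings arginine into the cell, was at 438 and 538 CPM in brain ECs and at 56.3 and 36.6 CPM in dura mater ECs. Its log2 fold change was −3.39 ± 0.51 (SE), with an adjusted p of 0.0566 in edgeR, and the libraries were well separated.

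Proteins that bind the synthase stood on both sides. Cav1, the caveolar coat protein that holds the synthase back, was at 147 and 199.8 CPM in brain ECs against 533 and 529 CPM in dura mater ECs, which gave 1.61 ± 0.41 (SE) as log2 fold change, with an adjusted p of 0.259 in edgeR. Hsp90aa1, a chaperone of the synthase and a heat shock gene, was at 68.5 and 91.6 CPM against 458 and 284 CPM (adjusted p of 0.233 in edgeR, with a log2 fold change of 2.21 ± 0.52, SE). Nostrin, which traffics the synthase away from the membrane, was at 423 and 459 CPM in brain ECs and at 0.222 and 58.5 CPM in dura mater ECs. Both dura mater values lay below both brain values, but they were far from each other (adjusted p of 0.509 in edgeR, with a log2 fold change of −3.90 ± 1.85, SE).

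Ddah1 removes methylarginines, the natural inhibitors of nitric oxide synthases. It had brain counts of 1486 and 1752 and dura mater counts of 13 and 269 (adjusted p of 0.466 in edgeR, with a log2 fold change of −3.73 ± 1.61, SE). Of the other synthases, the inducible form Nos2, also named after its values were seen, had 597 and 1 counts in brain ECs against 92 and 72, so the tissues overlapped. Nos1, the neuronal form, was at 126 and 65.0 CPM in brain ECs and at 22.4 and 21.3 CPM in dura mater ECs (edgeR adjusted p 0.610). Gucy1b3, the beta subunit of soluble guanylate cyclase, was not counted in brain ECs (0 in each library), and its dura mater counts were 512 and 243, at least 122-fold higher (edgeR adjusted p 0.466). Guanylate cyclase is best known from the muscle side of the vessel wall, and the summed level of 10 mural cell markers overlapped, at 688 to 1167 CPM in brain ECs and 691 to 1155 CPM in dura mater ECs. Of the 10, 4 were higher in both dura mater libraries and 1 was lower, where 26.2% and 16.9% of all tested genes were. None passed in edgeR, and all 4 defining genes overlapped, such as Acta2 with 4979 and 10644 counts against 7580 and 3663. Of the others, named after their values were seen, Kcnj8 had 0 and 0 counts against 468 and 410, Cspg4 had 0 and 1 against 263 and 65, and Notch3 had 5 and 0 against 99 and 254, which is the pattern of Gucy1b3 and Ednra. Des went the other way, with 1056 and 1350 counts against 412 and 284. The part of mural cells in the values of Gucy1b3 and Ednra was not tested.

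Edn1 encodes the precursor of endothelin-1 (chromosome 13, 42301476 to 42307990, plus strand). It was at 162 and 215 CPM in brain ECs and at 134 and 182 CPM in dura mater ECs. Each tissue had a value within the range of the other. The means were 188 ± 37.9 CPM and 158 ± 33.8 CPM (SD, n = 2), which gave −0.25 ± 0.53 (SE) as log2 fold change, with an adjusted p of 1.00 in edgeR, and the value stayed below 0 in all 14 alternatives, from −0.51 to −0.10.

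The sister ligand Edn3, endothelin-3, had another distribution, with 5588 and 7137 counts in brain ECs and 1 and 627 counts in dura mater ECs. In CPM these were 382 and 535 against 0.0739 and 38.1. Both brain values lay above both dura mater values, but the dura mater replicates were split (adjusted p of 0.466 in edgeR, with a log2 fold change of −4.58 ± 1.96, SE). The peptides differ in receptor choice, since endothelin-3 acts mainly on the type B receptor. The stretches that code for the mature peptides are shown because they are the ligands whose receptor is described next. Each lies in exon 2 of 5 of its transcript, at chr13:42303649-42303711 for Edn1 and chr2:174761749-174761811 for Edn3, both on the plus strand of GRCm38, and the capitals mark the 4 cysteine codons of the disulphide bridges.
Edn1: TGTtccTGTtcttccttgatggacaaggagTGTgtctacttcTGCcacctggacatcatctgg
Edn3: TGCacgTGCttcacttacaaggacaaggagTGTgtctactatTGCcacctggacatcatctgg
Of the 63 bases, 50 are the same, and 15 of the 21 codons encode the same residue, the 4 cysteines among them.

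Ece1, the protease that cuts big endothelin-1 to the active peptide (chromosome 4, plus strand, 137862237 to 137965229), stood at 947 and 802 CPM in brain ECs and at 1397 and 1709 CPM in dura mater ECs. Both dura mater libraries lay above both brain libraries. The means were 875 ± 103 CPM and 1553 ± 220.1 CPM (SD, n = 2), which gave 0.83 ± 0.30 (SE) as log2 fold change, with an adjusted p of 0.466 in edgeR. The SE was the smallest among the members. Over the 14 alternatives the value ran from 0.65 to 0.90 and the adjusted p of those tests from 0.132 to 0.799. Of the other endothelin proteases, Ece2 and Mme (neprilysin) had at most 1 count in any library, and Kel had 0 counts in each.

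Ednrb encodes the endothelin receptor type B (chromosome 14, 103814625 to 103844402, minus strand). It was not counted in brain ECs (0 in each library), and its dura mater counts were 1479 and 1283. Taking 3 counts as the limit that a count of 0 allows, brain ECs were at no more than 0.205 and 0.225 CPM, while dura mater ECs were at 109 and 77.9 CPM (mean 93.6 ± 22.2, SD, n = 2). The dura mater replicates were close to each other, and the receptor was at least 435-fold higher than in brain ECs. That bound covers counting error only, not the spread between libraries. The edgeR adjusted p was 0.155 and the DESeq2 adjusted p 2.5e-07. Of 13 alternatives, 5 passed the threshold, and the adjusted p ran from 2.8e-08 to 0.771 over the 13. In edgeR it was 0.771 without dura mater replicate 1, 0.287 without dura mater replicate 2, 3.0e-05 without brain replicate 1 and 2.5e-05 without brain replicate 2, and in the last 2 the lone brain library is assumed to vary like the dura mater pair. Ednra, the type A receptor known from smooth muscle, had brain counts of 3 and 0 and dura mater counts of 254 and 298 (adjusted p of 0.559 in edgeR, with a log2 fold change of 6.27 ± 3.22, SE).

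Ace, the angiotensin-converting enzyme, sits on the luminal face of ECs, where it makes angiotensin II and breaks down bradykinin (chromosome 11, 105967945 to 105989964, plus strand). It was at 127 and 66.5 CPM in brain ECs and at 215 and 152 CPM in dura mater ECs. The tissues did not overlap, but the gap between them was narrower than the spread within each. The means were 96.5 ± 42.4 CPM and 183 ± 44.5 CPM (SD, n = 2), which gave 0.92 ± 0.65 (SE) as log2 fold change, with an adjusted p of 0.800 in edgeR. The value depended on the brain library kept, with 1.42 without brain replicate 1 and 0.48 without brain replicate 2, and it was 0.51 without dura mater replicate 1.

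Of 13 further genes of the angiotensin and kinin system, 3 were tested and none passed in edgeR. Agt, Ren1, the angiotensin receptors Agtr1a, Agtr1b and Agtr2, Mas1 and the bradykinin receptors Bdkrb1 and Bdkrb2 had 0 counts in all 4 libraries. Anpep, aminopeptidase N, which trims angiotensin III and is also found on pericytes and fibroblasts, had 1 and 2 counts in brain ECs. In dura mater ECs it had 689 and 1627 counts, or 50.9 and 98.8 CPM. Its log2 fold change was 8.25 ± 2.05 (SE), with an adjusted p of 0.256 in edgeR.

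Ptgs1 encodes cyclooxygenase-1, the constitutive form (chromosome 2, 36230426 to 36252272, plus strand). It was counted 0 and 1 times in brain ECs, and its dura mater counts were 2434 and 1943. In CPM these were 0 and 0.0749 against 179.9 and 118, so every dura mater value lay far above both brain values. The ratio of the summed counts, scaled by library size, was 4081, with an exact 95% binomial interval of 732 to 161218 that covers counting error only. The log2 fold change was 9.73 ± 1.46 (SE), with an adjusted p of 0.0566 in edgeR, the smallest adjusted p among the members, and the DESeq2 adjusted p was 2.2e-08. It passed in 7 of 13 alternatives, and the adjusted p ran from 9.2e-11 to 0.628 over the 13. In edgeR it was 0.628 without dura mater replicate 1, 0.0646 without dura mater replicate 2, 8.5e-09 without brain replicate 1 and 9.2e-11 without brain replicate 2, and each of these tests takes its spread from the tissue that kept both libraries. It was 0.00267 with the replicate number as a block.

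Ptgs2 encodes cyclooxygenase-2, the inducible form and an immediate-early gene (chromosome 1, 150100031 to 150108227, plus strand). It was not counted in brain ECs (0 in each library), and its dura mater counts were 411 and 156, or 30.4 and 9.47 CPM. The dura mater replicates differed from each other, and both were above brain ECs. The mean level was at least 92.7-fold above that of brain ECs, a bound that covers counting error only. The edgeR adjusted p was 0.466. The fitted log2 fold change of 7.18 was 6.07 without dura mater replicate 1. The gene passed in 2 of 13 alternatives, both of them DESeq2 (adjusted p 0.0441 on the same genes).

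The 9 genes that respond to tissue dissociation differed in the same direction as Ptgs2. Their summed level was 3737 to 3877 CPM in brain ECs and 18366 to 21642 CPM in dura mater ECs. Of the 9, 9 were higher in both dura mater libraries and 4 passed in edgeR, beside 26.2% and 0.610% of all tested genes. The part of these 9 genes in the value of Ptgs2 was not tested.

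The bases before the start sites of Ednrb, Ptgs1 and Ptgs2 are printed because these 3 members shared the pattern of 0 or 1 counts in brain ECs. RefSeq windows of 250 bases (GRCm38.p6) were found for 8 of the 10 members, and Nos3 and Ptgis had none. The windows are chr14:103843702-103843951 on the minus strand for Ednrb, chr2:36230176-36230425 on the plus strand for Ptgs1 and chr1:150099781-150100030 on the plus strand for Ptgs2. The Ednrb window lies inside the GENCODE span of the gene, so its RefSeq start site is downstream of the GENCODE 5′ end. Capitals mark matches, on either strand, to a TATA box (TATAAA), a GC box (GGGCGG), a CRE (TGACGTCA), the short CRE core (TGACG, which the CRE contains) or an AP-1 site (TGANTCA). An NF-kB pattern was searched as well.
Ednrb: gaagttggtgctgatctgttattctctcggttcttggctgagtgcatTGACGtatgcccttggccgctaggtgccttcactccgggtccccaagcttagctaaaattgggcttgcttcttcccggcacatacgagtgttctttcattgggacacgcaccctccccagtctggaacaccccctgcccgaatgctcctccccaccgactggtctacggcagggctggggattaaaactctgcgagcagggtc
Ptgs1: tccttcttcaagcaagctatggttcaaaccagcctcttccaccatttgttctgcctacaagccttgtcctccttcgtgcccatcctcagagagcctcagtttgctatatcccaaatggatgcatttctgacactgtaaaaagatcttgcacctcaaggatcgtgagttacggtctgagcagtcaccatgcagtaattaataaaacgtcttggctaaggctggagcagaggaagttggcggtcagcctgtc
Ptgs2: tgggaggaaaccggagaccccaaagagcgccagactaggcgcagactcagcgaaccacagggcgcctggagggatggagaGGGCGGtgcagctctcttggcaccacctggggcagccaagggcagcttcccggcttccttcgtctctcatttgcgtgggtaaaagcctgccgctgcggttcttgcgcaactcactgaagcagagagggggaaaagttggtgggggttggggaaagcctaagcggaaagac
Ednrb held 1 short CRE core, a motif found in 17.8% of 32851 such windows, and Ptgs2 held 1 GC box, found in 32.7%. Ptgs1 held no match. The TATA box, the full CRE, the AP-1 site and the NF-kB pattern were in none of the 3 windows. Over all windows they are in 12.4%, 1.55%, 6.75% and 1.41%. Bases after the annotated start sites were not searched, so matches there would be missed. G and C made up 56.8%, 48.0% and 61.6% of the bases.

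Ptgis, the prostacyclin synthase of the vessel wall (chromosome 2, 167191805 to 167240604, minus strand), had brain counts of 82 and 233 and dura mater counts of 6 and 748. These were 5.61 and 17.5 CPM against 0.443 and 45.4 CPM, so the dura mater libraries held both the lowest and the highest value. The log2 fold change, 0.98 ± 2.78 (SE) with an adjusted p of 1.00 in edgeR, had no stable direction. It was −4.33 without dura mater replicate 2, −0.98 in limma-voom and −0.94 with the replicate block.

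Ptgds, the lipocalin-type prostaglandin D synthase (chromosome 2, 25466709 to 25470046, minus strand), is abundant in the meninges and in oligodendrocytes. It had brain counts of 12 and 18 and dura mater counts of 929 and 284, or 0.821 and 1.35 CPM against 68.7 and 17.2 CPM. Dura mater ECs were higher in both libraries, with a mean of 43.0 ± 36.4 CPM against 1.08 ± 0.373 CPM (SD, n = 2). The log2 fold change was 5.14 ± 2.54 (SE), with an adjusted p of 0.529 in edgeR. It passed in 1 of 14 alternatives, DESeq2 with its own filter on all genes (adjusted p 0.0204), and was 3.70 without dura mater replicate 1.

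Markers of the cells that are known for Ptgds also had higher counts in dura mater ECs, though not all of them. The 9 markers of fibroblasts and arachnoid cells summed to 7.32 to 50.5 CPM in brain ECs and to 374 to 395 CPM in dura mater ECs, with 5 of the 9 higher without overlap (26.2% of all tested genes were) and none passing in edgeR. Of their defining genes, Dcn had 16 and 15 counts against 1184 and 1664, whereas Pdgfra had at most 1 count in any library. The 6 oligodendrocyte markers summed to 5.17 to 101 CPM and 57.9 to 138 CPM, and of the defining genes Mbp had 1476 and 4 counts against 1027 and 6, while Mog had 1 count in all. The part of these cells in the Ptgds value was not tested. Between the dura mater replicates, Slc47a1 (384 and 54 counts) and Col3a1 (1443 and 962) were higher in replicate 1, as Ptgds was, and Dcn and Col1a1 (759 and 1237) were higher in replicate 2.

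Ptger4, the receptor EP4 for prostaglandin E (chromosome 15, 5206661 to 5244187, minus strand), was not counted in brain ECs (0 in each library), and its dura mater counts were 2 and 485, or 0.148 and 29.4 CPM. A single library therefore carried the gene, and it was not tested. Exons of antisense genes cover 32.3% of the exon bases of Nos3 (Atg9b 7.12%, Gm15587 25.2%), 16.5% of the exon bases of Ptger4, 6.08% of Ptgis, 5.58% of Ace, 3.81% of Ptgs1 and 1.64% of Edn1, and none of Ednrb, Ece1, Ptgs2 and Ptgds. Besides Atg9b, the antisense neighbours that the tables list are Gm11651 at Ace, with 0 counts in each library, and Ttc33 at Ptger4, with 970, 520, 0 and 336 counts.

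Of 20 further prostanoid genes, 10 were tested and none passed in edgeR, with 3 at an unadjusted p under 0.05 and higher in dura mater ECs and 1 lower. At that unadjusted threshold, 658 of all 9347 tested genes were higher and 278 lower. Pla2g4a, the cytosolic phospholipase that frees arachidonic acid for the cyclooxygenases, had brain counts of 5 and 2 and dura mater counts of 1092 and 531 (adjusted p of 0.430 in edgeR, with a log2 fold change of 7.20 ± 2.38, SE). Slco2a1, the carrier that takes prostaglandins back up, was at 0 and 4.50 CPM in brain ECs and at 204.6 and 301 CPM in dura mater ECs (adjusted p of 0.363 in edgeR, with a log2 fold change of 6.73 ± 2.02, SE). Both genes were separated between tissues, in the same direction as the cyclooxygenases. They passed the filter on low counts through the dura mater libraries, so that direction was largely fixed in advance.

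Ptges2, named as a prostaglandin E synthase, was not counted in brain ECs (0 in each library). Its dura mater counts were 236 and 245, at least 75.2-fold higher, a bound that covers counting error only (edgeR adjusted p 0.466). Abcc4, an exporter of prostaglandins and cyclic nucleotides, went the other way. It was at 712 and 637 CPM in brain ECs and at 272 and 164 CPM in dura mater ECs, which gave −1.63 ± 0.42 (SE) as log2 fold change, with an adjusted p of 0.271 in edgeR. Hpgds and Tbxas1, the synthases of prostaglandin D and thromboxane in blood cells, had 0 counts in each library. The 9 leukocyte markers summed to 31.2 to 49.7 CPM in brain ECs and 40.1 to 44.2 CPM in dura mater ECs. Their defining gene Ptprc had 1 to 4 counts in each library. Cd68 had 4 and 3 counts against 550 and 441, and it was the only 1 of the 9 without overlap. Other markers were highest in a single library. Csf1r had 4 and 646 counts against 28 and 9, C1qa had 436 and 1 against 2 and 25, and Mrc1 had 5 and 1 against 1 and 172.

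**Figure D3:**
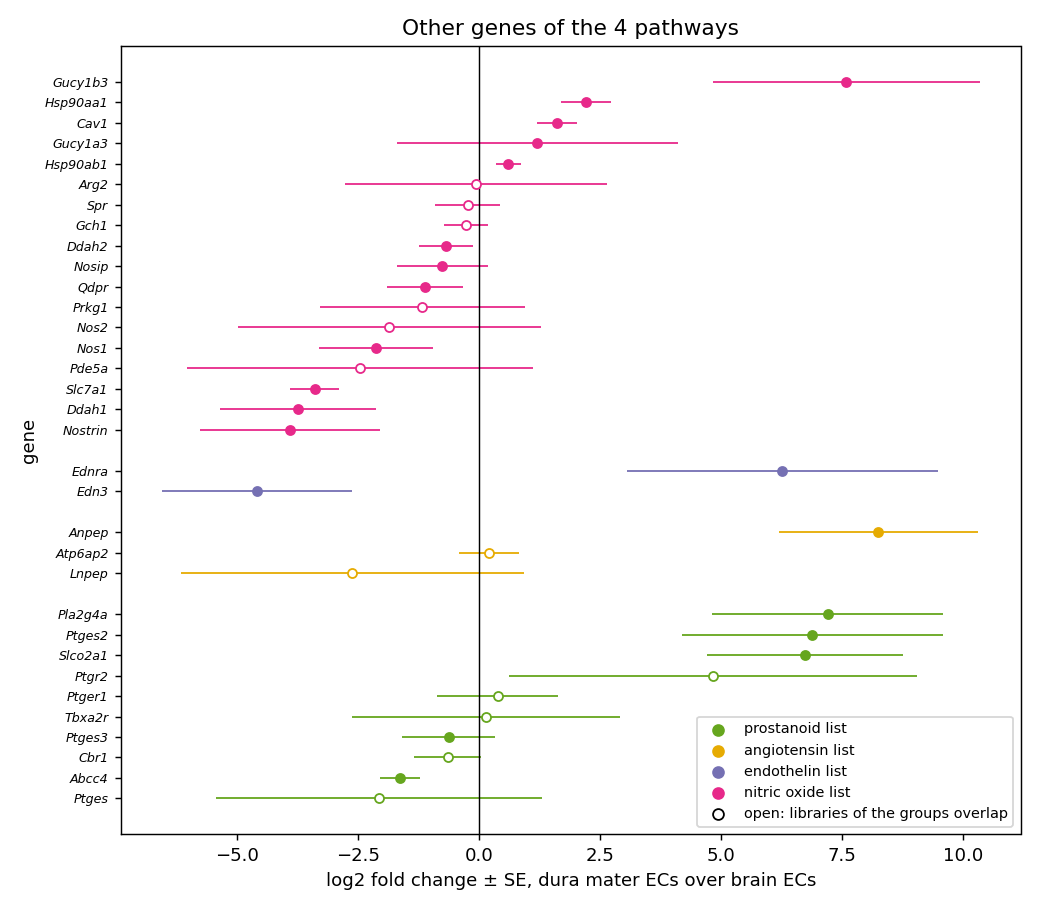
Log2 fold change with SE, dura mater ECs over brain ECs, of 33 of the 35 tested genes of the nitric oxide (pink), endothelin (purple), angiotensin (yellow) and prostanoid (green) lists, without the 10 members. Filled points are genes whose libraries do not overlap between tissues, and none of the genes drawn passed the adjusted threshold in edgeR.

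Over the 4 lists, 65 further genes were listed and 35 tested, with 0 passing in edgeR and 9 at an unadjusted p under 0.05, of which 2 were lower and 7 higher in dura mater ECs. The libraries did not overlap for 21 of them, 11 higher and 10 lower. Over all tested genes, 10% had such an unadjusted p, and 26.2% were higher and 16.9% lower without overlap. The median log2 fold change was −0.23, and by list it was −0.47 for nitric oxide (20 genes), 0.21 for angiotensin (3 genes) and 0.26 for prostanoids (10 genes). The endothelin list had 2 tested genes that lay on opposite sides of 0, Ednra and Edn3.

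The likeness of patterns was read as the root mean square distance between log2 CPM values, centred for each gene, over the 4 libraries and among 44 tested genes of these pathways. Ednrb and Ptgs1 were each other's nearest gene, at a distance of 0.28 log2 units. The nearest gene to Ptgs2 was Gucy1b3 (0.26), followed by Pla2g4a (0.30). Among the genes counted in both tissues, Edn1 was nearest to Spr (0.20), Ece1 to Hsp90ab1 (0.21) and Ace to Ptger1 (0.29). Ptgis had no close neighbour, with Pde5a at 1.88. The 4 libraries leave many genes alike, so these distances are a description.

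**Figure D4:**
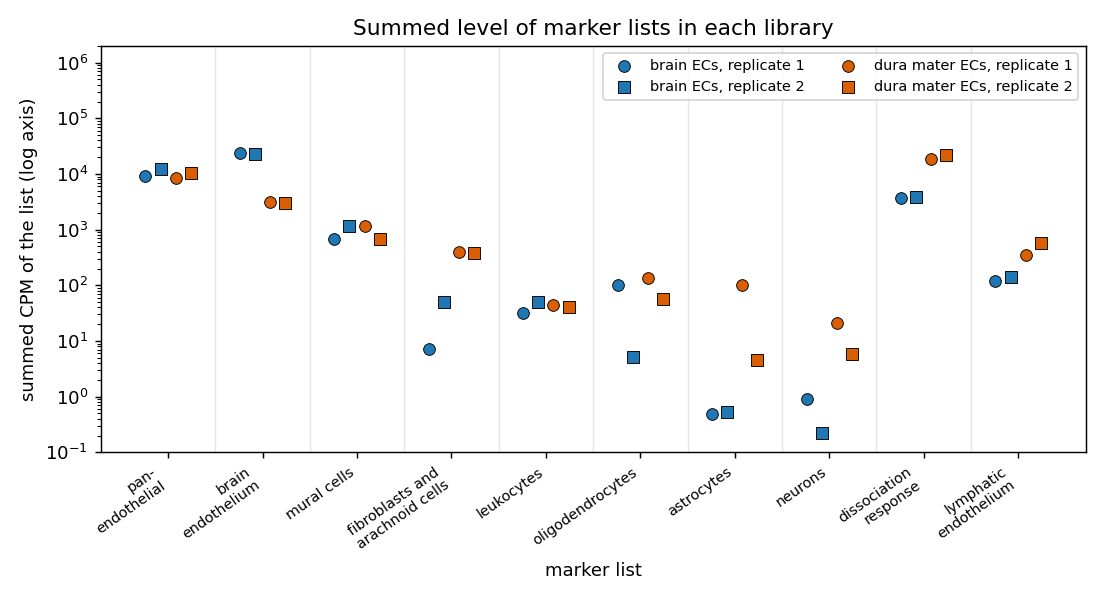
Summed CPM of 10 marker lists in each library, on a log axis (blue, brain ECs; orange, dura mater ECs; circles, replicate 1; squares, replicate 2). Pan-endothelial, mural and leukocyte sums overlap between tissues, whereas the fibroblast and arachnoid, astrocyte, neuron, dissociation and lymphatic sums are higher in both dura mater libraries and the brain endothelium sum is lower.

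The marker sums of lymphatic endothelium, astrocytes and neurons also differed between the sorted samples. No gene of these lists passed in edgeR, where 0.610% of all tested genes did. The 5 markers of lymphatic endothelium, which carries CD31 and passes the same gate, summed to 122 to 143 CPM in brain ECs and to 345 to 567 CPM in dura mater ECs. Flt4 alone made up nearly all of the brain sum, at 122 and 143 CPM, and was at 176 and 244 CPM in dura mater ECs. Prox1 and Lyve1 had 0 counts in the brain libraries, with 492 and 125 and with 911 and 1776 counts in the dura mater libraries. Pdpn had 3 and 7 counts in brain ECs against 3 and 45. The 5 astrocyte markers summed to 0.479 to 0.524 CPM and to 4.61 to 101 CPM, and of their defining genes Aqp4 was at 0 in all 4 libraries and Gfap had 3 and 0 counts against 189 and 0. Slc1a3, of the same list, had 1 and 1 counts against 915 and 74. The 4 neuronal markers summed to 0.225 to 0.889 CPM and 5.89 to 20.8 CPM. Of their defining genes, Rbfox3 had 1 and 0 counts against 0 and 0, and Snap25 had 0 and 0 against 0 and 20. Syt1 had 2 and 1 counts against 170 and 0. Only Tubb3 was separated between tissues, with 10 and 2 counts against 111 and 77. What part these cells had in the values of Ednrb, Ptgs1 and the other members was not tested.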

How the data were processed

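Libraries of sorted ECs were made with QuantSeq, a kit for transcript 3′ ends. The authors deposited raw counts for 23282 gene symbols in 1 table for each library. Reads were mapped with TopHat per the methods of the study, and the submitters' processing notes name Bowtie2, edgeR and mm10 (GRCm38). The counting step, annotation and use of strand are not given in the sources used here. A count of a 3′ tag does not scale with gene length, and reads in overlapping genes may be counted for both.

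Titles gave the groups. Tissues were compared by quasi-likelihood in edgeR 4.0.16 (R 4.3.3, earlier dispersion estimate) after filterByExpr and TMM scaling, without covariates. P-values of the 9347 genes were adjusted by Benjamini-Hochberg and read at 0.05. It stands in for cufflinks, which needs alignments. Log2 fold changes used a prior count of 2, and the SE is the fold change over the square root of F. CPM are counts scaled to the TMM-adjusted library total. With 2 libraries against 2, the smallest exact permutation p for a single value is 0.333, so none was computed. A fold against a group at 0 was set against 3 counts per library, and intervals and floors cover counting error only. No replicate pair was a duplicate, with a chi-square over its degrees of freedom of 363 for the brain pair and 229.7 for the dura mater pair.

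Alternatives were DESeq2 1.42.0, limma-voom (limma 3.58.1), the newer edgeR dispersion estimate, RLE and library-size scaling, no filter, at least 10 counts in every library, a replicate block, a prior count of 0.5 and each library left out. DESeq2 on all symbols with its own filter was added after seeing the data. Scripts were tested on simulated data. With every gene given the same spread, near the common coefficient of variation of 1.39, DESeq2 made more false than true calls and edgeR made no call. In these libraries the spread differed between genes and edgeR called 57. The simulation therefore does not show how reliable the calls of either test were here.

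The members and lists were chosen with earlier results of these data known. Named genes are the members, up to 4 genes for each list with the largest fold change, no overlap and at least 10 CPM in the higher group, the gene nearest in pattern to each member, and the defining markers. Other genes of the lists and other markers fall outside this rule and were named with their values known. Positions are from GENCODE M21 and the promoter windows from RefSeq, matched on symbol. The older symbols Gucy1b3 and Gucy1a3 were used as the tables give them. Values of a few listed genes are not reported here.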

Additional observations from a re-analysis of the deposited data

How the results depend on the processing

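Calls moved with the test far more than with the scaling. Against 57 genes in edgeR (40 higher and 17 lower in dura mater ECs), DESeq2 called 810 on the same genes and 1257 with its own filter. The newer edgeR dispersion estimate called 306, no filter 326, at least 10 counts in every library 141 (75 higher, 66 lower) and the replicate block 224 (133 higher, 91 lower). Leaving out 1 library gave 80 to 740 genes, with 43 higher and 54 lower without dura mater replicate 2, and limma-voom called 80 (40 higher, 40 lower). The members called were 0 in edgeR, limma-voom, RLE and library-size scaling and with at least 10 counts in every library. They were 3 in DESeq2, 4 in DESeq2 with its own filter, 1 under the newer dispersion estimate (Ptgs1), 2 without a filter (Ednrb and Ptgs1), 1 with the replicate block (Ptgs1) and 0 to 2 with 1 library left out, where the 2, without either brain library, were Ednrb and Ptgs1. For the other pathway genes, the count of 0 in edgeR became 9 in DESeq2, 12 in DESeq2 with its own filter, 6 under the newer dispersion estimate, 6 without a filter, 1 with at least 10 counts in every library, 4 with the replicate block, and 2 to 8 with 1 library left out.

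The sign of Nos3 turned without brain replicate 1 (0.35, with −0.81 to 0.35 over the 4 libraries left out), and that of Ptgis turned in limma-voom (−0.98), with the replicate block (−0.94) and without dura mater replicate 2 (−4.33, with −4.33 to 1.90 over the 4). The other 7 tested members kept their direction in each alternative that gave a value. For Ednrb, Ptgs1 and Ptgs2 that direction was fixed in advance, since they passed the filter on low counts through the dura mater libraries alone. Ednrb, Ptgs1, Ptgs2 and Ptgis gave no value under the filter of at least 10 counts in every library, and Ptger4 did not pass the main filter. The pairing of libraries by number rests on the titles alone, and over genes the deviations from the tissue means correlated at −0.02 between like-numbered libraries. Genes with no counts in a tissue, such as Ednrb in brain ECs, are known only to lie under 3 counts per library. That limit covers counting error only.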
